A study of Homo sapiens with 63 samples.

Results

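The 42 genes described here encode the heat shock chaperones of the cytosol and the mitochondria, the cochaperones that work with them, and the transcription factors HSF1 and HSF2. They were chosen by gene symbol from textbook families, not by a measured value, though earlier results of these data were known by then. All 42 were found among the 13962 genes of the deposited table. RNA had been sequenced from COLO320DM cells, a cultured human colorectal adenocarcinoma line, after 6, 24 or 48 h with Helicon 4, Helicon 4-neg or the solvent DMSO. Helicon 4 is a helicon peptide which, per the series title, is aimed at β-catenin/TCF, and Helicon 4-neg is its companion compound, whose structure the labels do not give. Each compound was used at 1, 3 and 10 µM, so there were 21 groups of 3 libraries, 63 in all, numbered as biological replicates. All groups were the same line with no genetic change named, and the labels do not say if each replicate was grown and treated on its own, so the p-values may reflect technical spread.

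Heat shock proteins hold unfolded chains and help them reach their folded state. HSP70 binds short exposed stretches of a chain, J-domain proteins such as DNAJB1 deliver the chain and trigger ATP hydrolysis, and nucleotide exchange factors of the HSP110 and BAG families release it. HSP90 acts later, on signalling proteins in particular, with cochaperones that load and time it, while the ring-shaped TRiC/CCT chaperonin folds actin and tubulin. In the mitochondrion HSPA9 pulls proteins in and HSPD1 with its lid HSPE1 folds them. HSF1 is held back by chaperones in unstressed cells, and when unfolded protein accumulates it forms trimers and binds heat shock elements, inverted repeats of the unit GAA, in the promoters of chaperone genes.

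The promoters of 36 of the 42 genes were in the RefSeq table (GRCh38.p14, 250 bases before to 50 after each start). An element of 3 units, written GAANNTTCNNGAA on one strand and TTCNNGAANNTTC on the other, was present in 7 of the 36 (19.4%), against 166 of 27305 genes with a promoter in the table (0.608%) and 52 of the 10505 measured here (0.495%). An element of 2 units (GAANNTTC or TTCNNGAA), which is contained in every 3-unit match, was present in 19 of the 36 (52.8%), against 13.7% of the measured genes. The 7 genes were HSPA8, HSP90AA1, HSP90AB1, HSPD1, DNAJA1, DNAJB6 and CHORDC1. HSF1, HSPA14, HSPB11, CRYAB, FKBP4 and CCT6A were not matched. The windows below hold 3-unit matches that lie before the start, and the 2-unit matches of HSPA1A, HSPA1B and HSPB1, which were chosen by name. A second window of HSP90AB1 is left out, as are the 2-unit matches of other genes, DNAJB1 and DNAJB4 among them. They are written 5′ to 3′ on the gene's strand, with the matched elements in capitals, and a match is a description of letters, not of binding.
HSPA1A, chr6:31815425-31815456 (+): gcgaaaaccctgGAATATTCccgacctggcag
HSPA1B, chr6:31827621-31827652 (+): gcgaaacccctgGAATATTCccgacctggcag
HSPA8, chr11:123062342-123062378 (-): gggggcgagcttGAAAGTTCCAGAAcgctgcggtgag
HSPA8, chr11:123062167-123062203 (-): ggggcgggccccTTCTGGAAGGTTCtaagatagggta
CHORDC1, chr11:90223075-90223121 (-): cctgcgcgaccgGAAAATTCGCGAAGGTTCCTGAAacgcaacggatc
DNAJB6, chr7:157336861-157336897 (+): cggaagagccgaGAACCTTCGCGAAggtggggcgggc
HSP90AA1, chr14:102087108-102087144 (-): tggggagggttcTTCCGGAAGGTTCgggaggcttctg
HSP90AB1, chr6:44247766-44247802 (+): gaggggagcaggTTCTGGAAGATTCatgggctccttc
HSPD1, chr2:197500056-197500090 (-): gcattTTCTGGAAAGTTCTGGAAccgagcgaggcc
HSPB1, chr7:76302479-76302510 (+): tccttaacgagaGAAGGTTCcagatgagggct

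The windows of HSPA1A and HSPA1B, neighbouring genes on chromosome 6, hold the same 2-unit element. Their annotated transcripts, of 2483 and 2521 bases, were 98.6% identical over 2152 aligned positions, with an identical run of 1715 bases. Reads from that run cannot be assigned to either gene, and how the counting treated them is not given. HSPA1A took 37.7% to 39.6% of the summed value of both genes in all 63 libraries, so they are not independent. Each is still counted as a member below, and a count that holds both holds 1 measurement under 2 names. With the pair summed, in 10 µM Helicon 4 against DMSO, 17 rose and 1 fell at 6 h, 7 rose and 25 fell at 24 h, and 12 rose and 19 fell at 48 h. Their sum gave the same calls as HSPA1B alone in the 10 µM Helicon 4 comparisons with DMSO.

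Values below are the deposited levels, CPM on a library size that the authors scaled, where 1 read was worth 0.0301 to 0.0622. Recovered totals ran from 16628595 to 32860333 reads per library over the genes in the table. The log2 fold changes are on the log2(value + 1) scale, which shrinks those of low genes, and come from limma fitted to all 21 libraries of a time. A gene is said to have risen or fallen where its Benjamini-Hochberg adjusted p over all genes tested was below 0.05. Errors after ± are SDs (n = 3), and a log2 fold change carries its standard error (SE). Of markers of the labelled cell type, CDX2 ran from 2234 to 3977 and KRT8 from 142 to 340, EPCAM stayed between 1.04 and 4.16, and CDH1 between 0 and 2.51. The summed level of the 6 epithelial markers in the table (of 7 listed) was lower with 10 µM Helicon 4 than in DMSO at each time, 2720 to 2779 against 3498 to 3556 at 6 h, 2603 to 2673 against 3569 to 3727 at 24 h and 2788 to 2796 against 4097 to 4319 at 48 h. CDX2 makes up most of this sum, so the sum mainly describes CDX2 and not each marker. Leukocyte markers (3 of 6) summed to 11.6 to 15.6 against 13.2 to 14.2, 15.7 to 17.3 against 14.0 to 16.9 and 17.0 to 18.3 against 10.5 to 12.9, and fibroblast markers (5 of 6) to 8.07 to 10.1 against 7.47 to 10.4, 18.7 to 54.3 against 8.09 to 55.1 and 26.5 to 30.8 against 8.78 to 44.5. The 1 endothelial marker in the table (of 4) stayed at or below 1.57, and COL1A2, DCN and KDR were at 0 in at least 1 library. The 13 transcripts encoded by the mitochondrial genome also moved at 10 µM Helicon 4. Against DMSO 11 fell at 6 h, 13 rose at 24 h and 6 fell at 48 h. Their summed level with 10 µM Helicon 4-neg also lay apart from DMSO at each time. It was lower at 6 h, 31441 to 33437.5 against 34753 to 37199.5. At 24 h it was higher, 29915 to 31368 against 22447 to 25190, and at 48 h lower, 41115 to 42694 against 47164 to 49536. The part of these marker and mitochondrial transcripts in the chaperone results was not tested. In bulk RNA, fewer cells with a transcript and less of it per cell cannot be told apart.

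Per kilobase of gene model, the cytosolic chaperones led in untreated cells. In DMSO at 6 h HSP90AB1 stood at 878 ± 22.4 per kilobase, HSPA8 at 504 ± 11.5 and HSP90AA1 at 395 ± 25.8. CCT7 at 384 ± 15.9 and HSPD1 at 372 ± 4.05 followed, and HSP90AA1, CCT7 and HSPD1 do not differ beyond their SDs. The lowest were HSPA4L, at 1.54 ± 0.113, and CRYAB, at 0.00627 ± 0.0109, which was left out of the tests at 6 h because fewer than 3 libraries reached 0.5. DMSO itself was not flat over time, and the largest falls were in HSP70. HSPA8 fell by 0.44 (SE 0.085, limma adjusted p 9.18e-05) from 6 to 24 h and by 1.18 (SE 0.085, adjusted p 8.96e-16) from 24 to 48 h. HSPA1A and HSPA1B fell by 1.11 and 1.12 in the first interval, and DNAJB1 by 0.71. Over all members, 1 rose and 17 fell from 6 to 24 h, where 20.4% of all genes were called, and 15 rose and 15 fell from 24 to 48 h, where 50.9% were. Each comparison with DMSO below is therefore with DMSO of the same time.

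At 6 h with 10 µM Helicon 4, chaperone transcripts rose, led by J-domain proteins and HSP70. Of 41 members tested 18 rose and 1 fell, which is 46.3% of the members against 13.7% of all genes (5.32% up and 8.4% down). At 24 h the direction was mostly down: 7 rose and 26 fell (78.6% of 42, against 52.7% of all genes, 25.1% up and 27.6% down). At 48 h 13 rose and 19 fell (76.2%, against 59.8%, 31.1% up and 28.7% down), with HSP70 and J-domain genes mainly up and mitochondrial genes and HSP90 cochaperones down. The median log2 fold change over the members was 0.10, -0.20 and -0.07 at the 3 times, beside -0.01, -0.01 and 0.02 over all genes. CRYAB, 1 of the 7 and of the 13 that rose at 24 and 48 h, passed the filter on low values only through Helicon 4 libraries, and the counts hold it for completeness. Without single libraries, 4 of the 19 calls at 6 h were lost in at least 1 case (CCT5, FKBP4, HSF1 and HSPD1), 5 of the 33 at 24 h (DNAJA1, HSF1, HSP90AA1, HSPD1 and HSPE1) and 2 of the 32 at 48 h (HSPD1 and TCP1). The comparisons of one time share their 3 DMSO libraries.

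**Figure D1:**
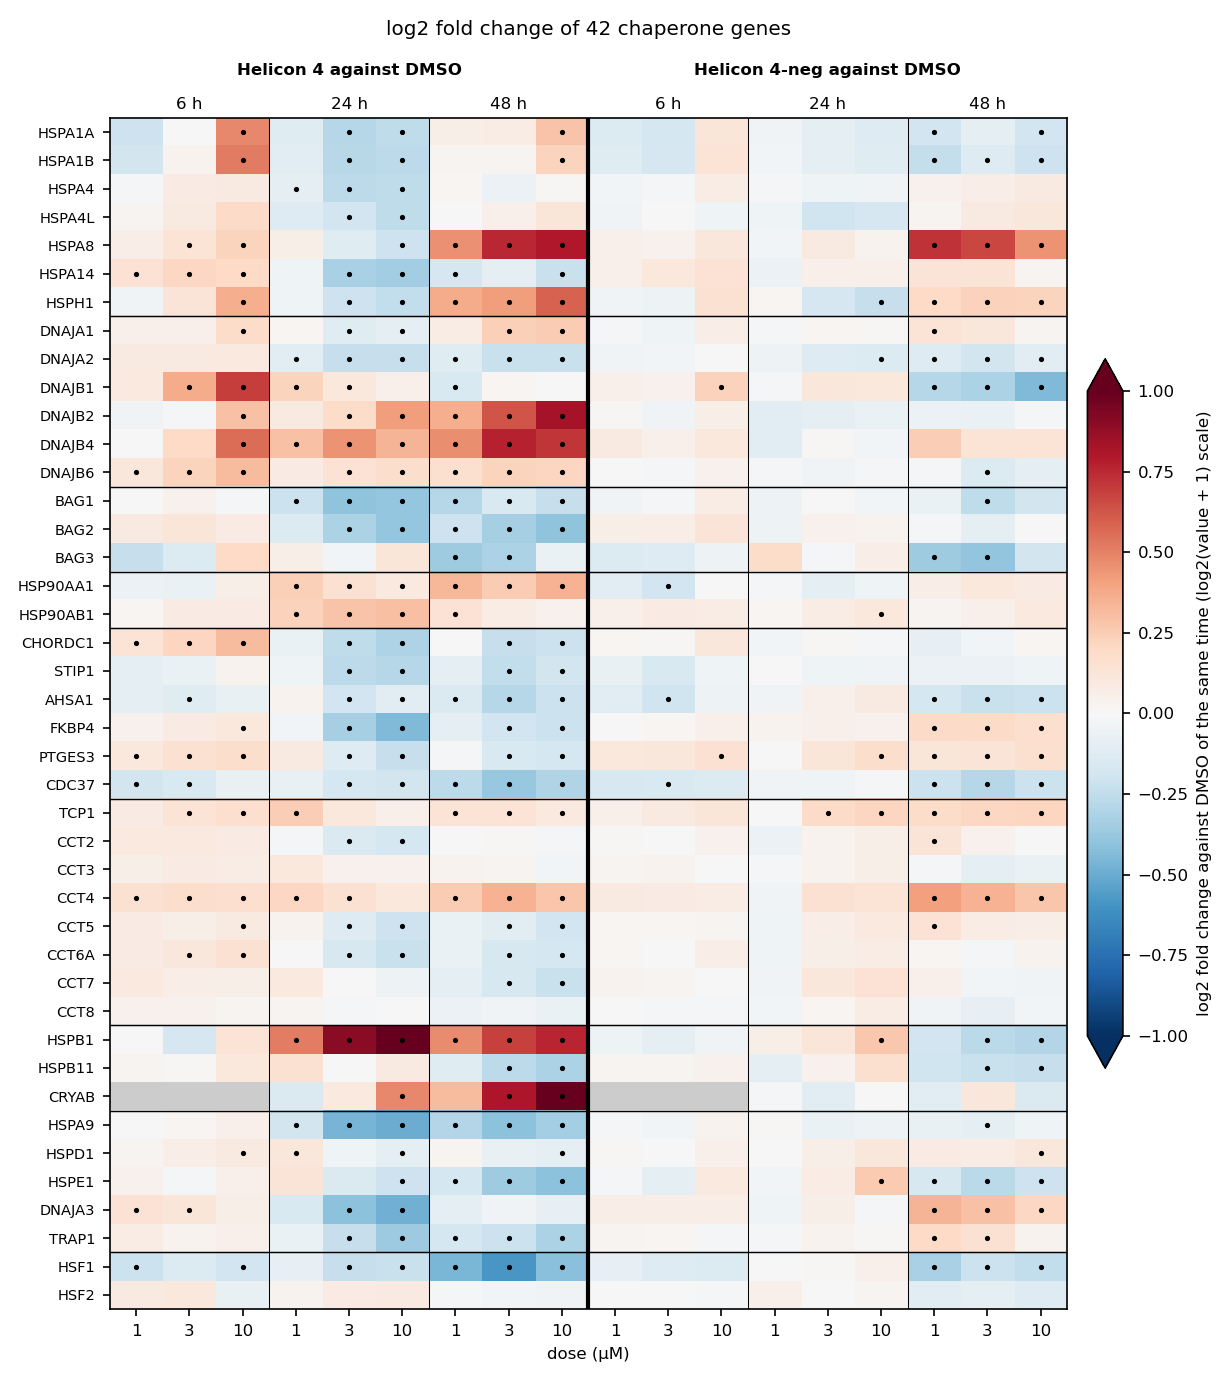
Colour gives the log2 fold change against DMSO of the same time, limited to -1 to 1, for the 42 members (rows, grouped by role) at 1, 3 and 10 µM of Helicon 4 and of Helicon 4-neg at 6, 24 and 48 h (columns); a dot marks a limma adjusted p below 0.05 and grey marks CRYAB at 6 h, not tested. With 10 µM Helicon 4, 18 members rose at 6 h and 26 fell at 24 h.

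The inducible and constitutive HSP70 genes rose, fell and rose again with 10 µM Helicon 4. At 6 h HSPA1B stood at 1243, 1110.4 and 1012 with 10 µM Helicon 4, at 892, 877 and 812 with 10 µM Helicon 4-neg and at 766, 887 and 702 in DMSO. All 3 Helicon 4 libraries lay above the other 6, while Helicon 4-neg and DMSO overlapped. HSPA1B rose by 0.52 against DMSO (SE 0.068, limma adjusted p 7.08e-06) and by 0.38 against Helicon 4-neg (adjusted p 0.000487); the difference of Helicon 4-neg from DMSO was 0.14 (95% interval -0.00 to 0.28, adjusted p 0.448). At 24 h the values of HSPA1B were 331, 277 and 295 with Helicon 4, 349.8, 320.1 and 322 with Helicon 4-neg and 358, 357 and 365 in DMSO. Helicon 4 lay below DMSO without overlap, and its first library fell inside the range of Helicon 4-neg. HSPA1B fell by 0.26 against DMSO (SE 0.069, adjusted p 0.00333), and its difference from Helicon 4-neg was -0.14 (95% interval -0.28 to 0.01, adjusted p 0.0992), which was called without the first Helicon 4 library (-0.21, adjusted p 0.0156) and with median centring (-0.16, adjusted p 0.0288). At 48 h HSPA1B stood at 395, 389.7 and 388 with Helicon 4, at 294, 295 and 282 with Helicon 4-neg and at 321, 346 and 337 in DMSO. The 3 groups did not overlap, with Helicon 4 above DMSO and Helicon 4-neg below it. HSPA1B rose by 0.22 (SE 0.037, adjusted p 1.79e-05) with Helicon 4 and fell by 0.20 (adjusted p 0.0013) with Helicon 4-neg, a difference of 0.43 (adjusted p 1.17e-09). HSPA1A read 788, 703 and 629 at 6 h against 491, 577 and 449.7 in DMSO, without overlap, and gave 0.48, -0.25 and 0.29 against DMSO at the 3 times.

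HSPA8, the constitutive HSP70, had its largest difference from DMSO at 48 h. The smaller one with Helicon 4-neg rested on single libraries at 10 µM, while no left-out library ended the calls at 1 and 3 µM. At 48 h HSPA8 stood at 1356, 1393 and 1388 with 10 µM Helicon 4, at 1007, 1139 and 1109 with 10 µM Helicon 4-neg, and at 857, 785 and 739 in DMSO. No library of either compound reached down to DMSO, where the level had dropped from 2501, 2438 and 2389.6 at 6 h. HSPA8 rose by 0.80 with Helicon 4 (SE 0.12, limma adjusted p 3.81e-06) and by 0.45 with Helicon 4-neg (adjusted p 0.0116). The Helicon 4-neg call was lost without the third DMSO library (0.40, adjusted p 0.0621) or the second Helicon 4-neg library (0.41, adjusted p 0.0544). The 1 µM Helicon 4-neg libraries read 1675, 1186 and 1124 and the 3 µM ones 1106, 1112 and 1611, so 1 library in each of these groups stood far above the other 2. The rise over Helicon 4-neg at 10 µM was 0.35 (adjusted p 0.0163) and was not called without the first Helicon 4-neg library (0.29, adjusted p 0.0698) or with limma's robust option (adjusted p 0.0549). At 6 h HSPA8 rose by 0.22 (adjusted p 0.000224), a call lost when all 63 libraries were fitted together (adjusted p 0.0825), and at 24 h it fell by 0.21 (adjusted p 0.0011).

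HSPH1, the HSP110 exchange factor that helps HSP70 dissolve aggregates, went the same way. At 6 h HSPH1 stood at 746, 684 and 682 with 10 µM Helicon 4, at 617, 613 and 588 with Helicon 4-neg and at 540.1, 608 and 497 in DMSO. Helicon 4 lay above both other groups, which overlapped. HSPH1 differed from DMSO by 0.36 at 6 h (SE 0.053, limma adjusted p 2.95e-05), -0.24 at 24 h (0.000192) and 0.59 at 48 h (SE 0.055; 3.39e-09). Against Helicon 4-neg the rise was 0.21 at 6 h (adjusted p 0.0107) and 0.36 at 48 h (adjusted p 6.25e-06), and the 6 h call was lost without the first Helicon 4 library (0.17, adjusted p 0.0852) or without the third Helicon 4-neg library (0.19, adjusted p 0.0649). Of the 7 cytosolic HSP70 family members, 5 rose at 6 h (5.32% of all genes up) and 7 fell at 24 h (27.6% down). At 48 h 4 rose and 1 fell (31.1% up and 28.7% down). HSPA1A and HSPA1B, 1 measurement under 2 names, are both in the counts of 5, 7 and 4. The 1 that fell at 48 h was HSPA14, a ribosome-associated member, which rose by 0.20 at 6 h and then fell by 0.34 and 0.23.

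**Figure D2:**
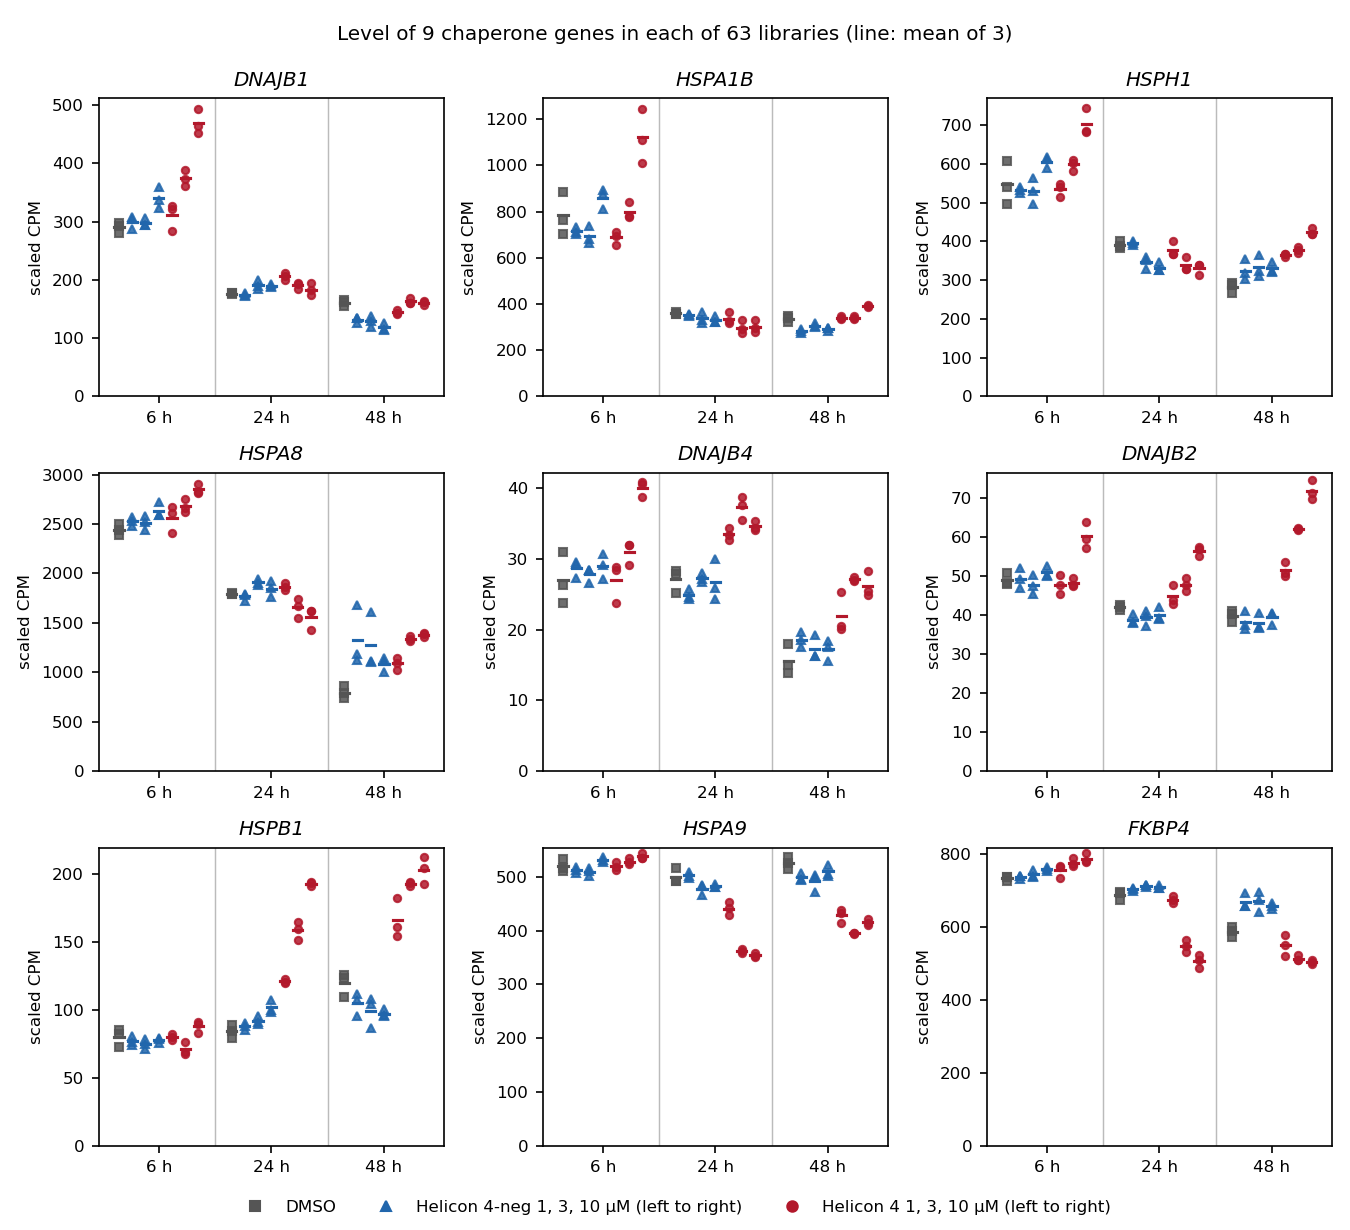
Deposited level (CPM on the authors' scale, linear axis from 0) of 9 members in every library at 6, 24 and 48 h; squares are DMSO, triangles Helicon 4-neg and circles Helicon 4, with 1, 3 and 10 µM from left to right, and the line is the mean of 3. DNAJB1 at 6 h climbs with Helicon 4 dose to 452 to 493, HSPB1 at 24 h to 191 to 194, and HSPA9 at 24 h drops to 352 to 358.

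Among the J-domain proteins, DNAJB1 gave the largest change at 6 h, and DNAJB2, DNAJB4 and DNAJB6 stayed raised to 48 h. DNAJB1 stimulates HSP70 and is a classical HSF1 target. At 6 h DNAJB1 stood at 297, 292 and 281 in DMSO, at 327, 322 and 284 with 1 µM Helicon 4, at 388, 362 and 374 with 3 µM, and at 493, 464 and 452 with 10 µM. The lowest dose overlapped DMSO and the higher doses lay above it and apart from each other. Helicon 4-neg read 337, 360.3 and 324 at 10 µM, above DMSO and below every 10 µM Helicon 4 library. DNAJB1 rose with Helicon 4 by 0.37 at 3 µM (limma adjusted p 5.24e-05) and by 0.69 at 10 µM (SE 0.048, adjusted p 2.16e-10), and was 0.46 above Helicon 4-neg at 10 µM (adjusted p 2.11e-07). The rise with 10 µM Helicon 4-neg, 0.23 (adjusted p 0.0329), was lost without its first library (0.24, adjusted p 0.112), its second library (0.19, adjusted p 0.264) or any 1 of the 3 DMSO libraries. The difference of 10 µM Helicon 4 from DMSO was 0.05 at 24 h (95% interval -0.03 to 0.13) and 0.00 at 48 h (95% interval -0.10 to 0.10), neither of them called. At 48 h DNAJB1 stood at 157, 162 and 163 with Helicon 4, at 116, 125 and 114 with Helicon 4-neg and at 166, 161 and 155 in DMSO. Helicon 4 overlapped DMSO, and Helicon 4-neg lay below both, a fall of 0.44 (adjusted p 1.18e-05).

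DNAJB2, a J-domain protein that hands clients to the proteasome, climbed at every time. DNAJB2 at 48 h stood at 40.1, 41 and 38.2 in DMSO, at 37.3, 40.5 and 40.3 with 10 µM Helicon 4-neg and at 71.1, 74.4 and 69.7 with 10 µM Helicon 4. Helicon 4 was far above the other groups, which overlapped. DNAJB2 rose at 48 h by 0.36 at 1 µM, 0.63 at 3 µM and 0.84 at 10 µM (SE 0.054, limma adjusted p 5.94e-12), and at 10 µM by 0.29 at 6 h and 0.42 at 24 h. DNAJB4 at 48 h read 24.9, 25.4 and 28.2 with 10 µM Helicon 4, 15.6, 17.6 and 18.4 with Helicon 4-neg and 15, 18 and 13.8 in DMSO. Helicon 4 did not overlap the others. DNAJB4, which acts with HSP70 much as DNAJB1 does, was raised at each time, by 0.56 at 6 h (adjusted p 1.68e-05), 0.34 at 24 h (0.000117) and 0.72 at 48 h (8.81e-07). DNAJB6, which holds back aggregation of glutamine-rich proteins, read 129, 129.7 and 121 at 6 h against 102, 99.5 and 103 in DMSO. The groups did not overlap, and its rises were 0.31, 0.17 and 0.21. DNAJA1 and DNAJA2, the general HSP70 partners, differed. DNAJA1 rose by 0.19 at 6 h and 0.25 at 48 h and fell by 0.09 at 24 h, a call lost without the first Helicon 4 library (-0.04) or the first (-0.07) or second (-0.09) DMSO library, while DNAJA2 fell by 0.23 and 0.22 at 24 and 48 h.

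The BAG exchange factors gave no rise at 10 µM. BAG1, which links HSP70 to the proteasome, fell by 0.39 at 24 h and 0.23 at 48 h. BAG2, an inhibitor of the ubiquitin ligase CHIP, read 54.7, 64.5 and 62.5 with 10 µM Helicon 4 and 79.6, 80.9 and 77.6 in DMSO at 24 h. The groups did not overlap, and BAG2 fell by 0.39 at 24 h and by 0.40 at 48 h (limma adjusted p 2.9e-06 and 6.71e-06). Exons of RAB23 on the opposite strand cover 42.7% of the BAG2 exon bases. The kit was stranded, but the strand setting of the counting is not given, so RAB23 reads may have been counted for BAG2. The same holds in lesser part for DNAJB1 (5.75%, TECR) and TCP1 (8.05%, ACAT2). BAG3, an HSF1 target that serves aggregate clearance, differed by 0.20 at 6 h (95% interval 0.02 to 0.38, adjusted p 0.143) and rose with dose there by 0.43 per 10-fold (adjusted p 0.00203), a slope that leaves out DMSO. Over the 9 comparisons of Helicon 4 with DMSO, BAG3 rose in 0 and fell in 2, and its lowest difference was -0.36. With Helicon 4-neg it also rose in 0 and fell in 2 of 9, with a lowest difference of -0.40.

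With 10 µM Helicon 4, HSP90AB1 rose at 24 h only, HSP90AA1 rose at 24 and 48 h, and the HSP90 cochaperones fell at both of these times. HSP90AA1 and HSP90AB1 did not pass the test at 6 h with 10 µM Helicon 4, and both promoters hold a 3-unit element (0.06, 95% interval -0.04 to 0.15, and 0.08, 95% interval 0.01 to 0.16). Of the 7 members with such an element 5 rose at 6 h, of the 29 tested whose promoter lacked it 10 rose, and 3 rose of the 5 with no promoter entry, beside 5.32% of all genes. The promoters of DNAJB1, DNAJB4, HSPA1A and HSPA1B, with the largest rises, hold no 3-unit element. They do hold 2-unit elements, at most 2, 1, 1 and 1 in a promoter. The 5 with an element that rose were CHORDC1, by 0.32, DNAJB6, by 0.31, HSPA8, by 0.22, DNAJA1, by 0.19, and HSPD1, by 0.09. The HSPD1 call was lost without the first (0.08) or second (0.09) Helicon 4 library or the first (0.09) or second (0.08) DMSO library. HSP90AB1, the constitutive form, read 3398, 3422 and 3411 at 24 h against 2807, 2732 and 2748 in DMSO. The groups were well apart, and HSP90AB1 rose by 0.30 (SE 0.033, limma adjusted p 1.34e-07). From 24 to 48 h this difference changed by -0.26 (limma adjusted p 1.02e-05), and HSP90AB1 was not called at 48 h. HSP90AA1, the inducible form, rose by 0.10 at 24 h, a call lost without the third Helicon 4 or the third DMSO library (0.08 each), and by 0.34 at 48 h (adjusted p 1.15e-06). FKBP4, an immunophilin partner of HSP90, read 486, 524 and 510.2 with 10 µM Helicon 4, 715, 706 and 706 with Helicon 4-neg and 694, 695 and 675 in DMSO at 24 h. The Helicon 4 libraries lay below all others. FKBP4 fell by 0.44 against DMSO (SE 0.032, adjusted p 2.8e-10) and by 0.48 against Helicon 4-neg (adjusted p 6.31e-11). At 6 h it had risen by 0.10 (adjusted p 0.0107), a call lost without the first Helicon 4 library (0.09, adjusted p 0.058). All 6 HSP90 cochaperones, namely CHORDC1, STIP1, AHSA1, FKBP4, PTGES3 and CDC37, fell at both 24 and 48 h, except that AHSA1 at 24 h was not called with median centring (adjusted p 0.0614). CHORDC1 turned from 0.32 at 6 h (values 149, 140.1 and 136 against 114, 108 and 118 in DMSO, without overlap) to -0.31 at 24 h (62.5, 64.2 and 66.8 against 81.2, 80.7 and 78.8, without overlap).

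The TRiC/CCT subunits, which work as 1 complex, did not move as 1 group. At 6 h with 10 µM Helicon 4, TCP1, CCT4, CCT5 and CCT6A rose by 0.09 to 0.17, and the remaining 4 of 8 were not called. At 24 h CCT2, CCT5 and CCT6A fell by 0.18 to 0.23. At 48 h CCT5, CCT6A and CCT7 fell by 0.18 to 0.23 and CCT4 rose by 0.28 and TCP1 by 0.10. The CCT5 call at 6 h was lost without the first or second Helicon 4 library (0.09 each) or the second DMSO library (0.07). The TCP1 call at 48 h was lost without the first (0.10) or the third (0.09) Helicon 4 library, the second (0.08) or the third (0.09) DMSO library, or with median centring (0.05, adjusted p 0.327). CCT4 at 48 h read 637, 655 and 676 with 10 µM Helicon 4, 627, 676 and 664 with Helicon 4-neg and 571, 534 and 518 in DMSO. Both compounds lay above DMSO and overlapped each other, and the difference between them was 0.00 (limma adjusted p 0.981). CCT3 and CCT8 were called against DMSO at no dose or time of either compound.

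Of the small heat shock proteins, HSPB1 rose with Helicon 4 at 24 and 48 h. HSPB1, which holds unfolding proteins without using ATP, read 79.5, 89 and 84.6 in DMSO at 24 h, 107, 99.6 and 98.3 with 10 µM Helicon 4-neg and 194, 194 and 191 with 10 µM Helicon 4. The 3 groups did not overlap and Helicon 4 stood apart from both. With Helicon 4, HSPB1 rose at 24 h by 0.51 at 1 µM, 0.90 at 3 µM and 1.19 at 10 µM (SE 0.045, limma adjusted p 1.2e-14), and with 10 µM Helicon 4-neg by 0.27 (adjusted p 0.00166). At 48 h HSPB1 stood at 212, 205 and 193 with Helicon 4, at 100.4, 95.7 and 95.3 with Helicon 4-neg and at 109.7, 123 and 125 in DMSO. Helicon 4-neg was now below DMSO, a fall of 0.29 (adjusted p 0.00867) that was lost without the third DMSO library (-0.26, adjusted p 0.0534), and Helicon 4 exceeded Helicon 4-neg by 1.06 (adjusted p 2.16e-11). At 6 h the difference of HSPB1 from DMSO was 0.14 (95% interval 0.02 to 0.25, adjusted p 0.102), called without the second DMSO library (0.18, adjusted p 0.0477) and with median centring (0.19, adjusted p 0.0249). CRYAB, the related αB-crystallin, is close to silent in these cells. At 48 h it read 1.49, 1.14 and 1.63 with 10 µM Helicon 4, 0, 0 and 0.107 with Helicon 4-neg and 0.0622, 0.159 and 0.206 in DMSO, which are a few reads per library in the last 2 groups. Helicon 4 did not overlap them. CRYAB reached the filter of 0.5 only in Helicon 4 libraries, so it had to differ to be tested. No test of it at a single time is given, and its calls held in the counts are not support. The test of its change between times, listed among the flagged results, is no support either. HSPB11, which despite its name is a component of ciliary transport, fell by 0.32 at 48 h.

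The mitochondrial chaperones fell at 24 h. HSPA9, the mitochondrial HSP70, read 517, 492 and 492 in DMSO, 481, 487 and 480.5 with 10 µM Helicon 4-neg and 358, 352 and 352 with 10 µM Helicon 4. The Helicon 4 libraries were lowest by a wide margin. HSPA9 fell by 0.50 against DMSO (SE 0.031, limma adjusted p 2.64e-11), by 0.46 at 3 µM and by 0.18 at 1 µM, and at 10 µM by 0.45 against Helicon 4-neg. DNAJA3, its J-domain partner, stood at 149, 177 and 158 with Helicon 4 and at 228, 224 and 223 in DMSO. The groups did not overlap, and DNAJA3 fell by 0.48 (SE 0.06, adjusted p 1.1e-06). TRAP1, the mitochondrial HSP90, fell by 0.37, and exons of DNASE1 on the opposite strand cover 29.3% of its exon bases. HSPD1 fell by 0.10. HSPE1 fell by 0.21 (adjusted p 0.00662), a call lost without the first Helicon 4 library (-0.14, adjusted p 0.0503), and 14.2% of its exon bases overlap HSPD1 on the opposite strand. Against Helicon 4-neg HSPE1 read 70.2, 83.6 and 78.9 beside 109, 102 and 112 at 24 h, without overlap, a fall of 0.47 (adjusted p 1.62e-06). At 48 h HSPA9, TRAP1, HSPE1 and HSPD1 were still below DMSO, by 0.34, 0.32, 0.41 and 0.10, and DNAJA3 was not called (-0.08, adjusted p 0.244), but was with median centring per library (-0.14, adjusted p 0.0499). The HSPD1 call was lost at 24 h without the first Helicon 4 library (-0.06) or the first (-0.09) or second (-0.10) DMSO library or with median centring (-0.09), and at 48 h without the second Helicon 4 or the first DMSO library (-0.09 each). All 5 were below Helicon 4-neg at both 24 and 48 h. Transcripts encoded by the mitochondrial genome moved the other way at 24 h, where all 13 rose with 10 µM Helicon 4 (median 0.36). At 48 h 6 of the 13 fell (median -0.58). With 10 µM Helicon 4-neg their summed level was also above DMSO at 24 h and below it at 48 h, without overlap. The part of these transcripts in the values of the nuclear genes was not tested.

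HSF1 transcript was lower with Helicon 4 and HSF2 was not called. HSF1 at 48 h read 81.3, 82.1 and 75.5 with 10 µM Helicon 4, 92.2, 90.1 and 87.1 with Helicon 4-neg and 102, 104 and 114 in DMSO. The 3 groups did not overlap, with Helicon 4-neg between the others. HSF1 fell by 0.42 with Helicon 4 (SE 0.074, limma adjusted p 4.16e-05) and by 0.24 with Helicon 4-neg (adjusted p 0.0252), a call lost without the second (-0.25) or the third (-0.22) Helicon 4-neg library or the second (-0.26) or the third (-0.19) DMSO library, and the difference between them was -0.17 (95% interval -0.33 to -0.02, adjusted p 0.0542). At 6 h it stood at 95.4, 92.1 and 90.8 against 104, 115 and 98.7 in DMSO, close but without overlap, a fall of 0.19 (adjusted p 0.0127) that was lost without the second DMSO library (-0.13) or the third Helicon 4 library (-0.17), or in 1 fit of all 63 libraries (adjusted p 0.067). At 24 h the fall was 0.22 (adjusted p 0.009), lost without the second Helicon 4 library (-0.14). HSF2 read 21.6, 20.8 and 22.8 at 6 h against 22.8, 24 and 22.2 in DMSO, with overlap, and its differences were -0.08, 0.09 and -0.03 at the 3 times, with 95% intervals inside -0.20 to 0.24. These are transcript levels, and the activity of HSF1 protein was not measured.

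The change with dose was tested as a slope per 10-fold dose over 1, 3 and 10 µM. For Helicon 4, 13 members rose with dose and 0 fell at 6 h (8.68% of all genes called), 3 rose and 26 fell at 24 h (35.9%), and 10 rose and 11 fell at 48 h (31.3%). At 6 h 24 members had an unadjusted p under 0.05 for this slope. HSPA1A and HSPA1B had the steepest at 6 h, both 0.70 (limma adjusted p 3.05e-07 and 5.48e-08), although HSPA1B at 3 µM read 842, 778 and 779 and overlapped DMSO (0.03, 95% interval -0.11 to 0.17). The slope leaves out DMSO and starts from 1 µM. There the summed pair differed from DMSO by -0.19 (95% interval -0.34 to -0.05, limma adjusted p 0.0705), so the slope is not a rise over DMSO. DNAJB1 gave 0.60 and DNAJB4 0.56. At 24 h HSPB1 rose by 0.67 per 10-fold and FKBP4 fell by 0.41. For Helicon 4-neg limma called 0 members at 6 h (0.0613% of all genes; 12 members had an unadjusted p under 0.05, and edgeR called 0), 10 up and 1 down at 24 h (19.8%), and 1 down at 48 h (2.24%). At lower doses of Helicon 4 against DMSO, 6 rose and 2 fell at 1 µM and 10 rose and 2 fell at 3 µM at 6 h (12.7% and 9.17% of all genes). Without single libraries the 1 µM count of 8 ran from 1, without the second DMSO library, to 15, without the third, and the 3 µM count of 12 became 6 without the second Helicon 4 library. At 24 h 8 rose and 4 fell at 1 µM and 8 rose and 23 fell at 3 µM (18.9% and 45.2%), and at 48 h 10 rose and 12 fell, then 11 rose and 18 fell (40.9% and 59.2%).

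**Figure D3:**
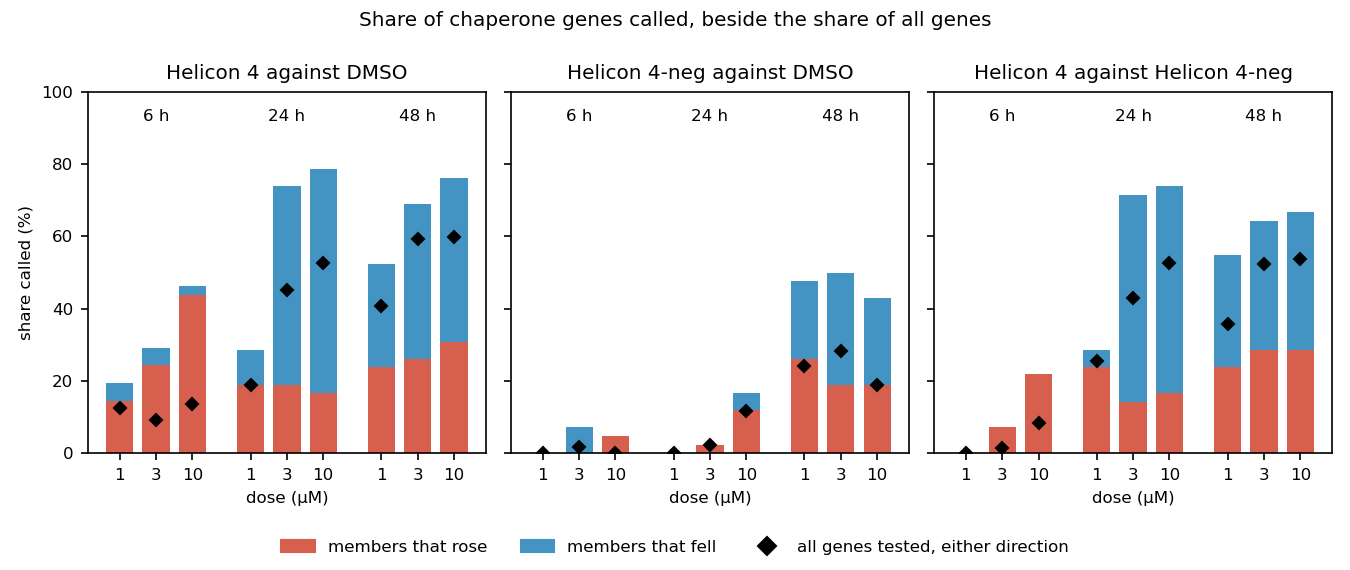
Bars give the percentage of the members that rose or fell (limma adjusted p below 0.05) in each comparison. Each pair of treatments compared has its own panel, which holds all times side by side. The black diamond gives the percentage of all tested genes called in the same comparison. With 10 µM Helicon 4 the bars reach 46.3%, 78.6% and 76.2% at 6, 24 and 48 h, and the diamonds 13.7%, 52.7% and 59.8%.

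Helicon 4-neg changed few members up to 24 h and more at 48 h. Against DMSO at 6 h limma called 0 members at 1 µM (0.0306% of all genes; 5 members had an unadjusted p under 0.05, edgeR called 0), 0 up and 3 down at 3 µM (1.75%) and 2 up at 10 µM (0.26%). The 3 that fell were AHSA1, CDC37 and HSP90AA1, and the 2 that rose were DNAJB1 and PTGES3. Each of these 5 calls was lost in at least 1 case when 1 library was left out, as was that of TCP1 at 24 h. At 24 h it called 0 at 1 µM (0% of all genes; 1 member had an unadjusted p under 0.05, edgeR called 0), 1 up at 3 µM (TCP1; 2.36%) and 5 up and 2 down at 10 µM (11.7%). The 10 µM count of 7 became 3 without the first DMSO library and 4 without the third. At 48 h 11 rose and 9 fell at 1 µM (24.3%), 8 rose and 13 fell at 3 µM (28.3%), and 8 rose and 10 fell at 10 µM (19%). At 10 µM 9 of the 18 calls were lost without 1 library in at least 1 case. The 10 µM count of 18 became 10 without the third DMSO library and 11 without the second Helicon 4-neg library, and the 3 µM count of 21 became 13 without the third DMSO library. HSPA8 led the rises at 48 h, by 0.72, 0.66 and 0.45 at 1, 3 and 10 µM. CCT4 rose by 0.41, 0.35 and 0.28 and FKBP4 by 0.19, 0.19 and 0.17, while DNAJB1 fell by 0.29, 0.32 and 0.44 and HSPE1 by 0.16, 0.27 and 0.20. The HSPE1 call at 10 µM was lost without the second DMSO library (-0.19, adjusted p 0.0563), and the one at 1 µM was lost without 1 library in 3 cases (adjusted p up to 0.209). The estimates for HSPA8, CCT4 and FKBP4 at 48 h were no smaller at 1 µM than at 10 µM, and their slopes with Helicon 4-neg dose were not called.

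Helicon 4 and Helicon 4-neg were compared directly at matched dose and time, 9 comparisons in all. At 6 h limma called 0 members at 1 µM (0.0613% of all genes; 8 members had an unadjusted p under 0.05, edgeR called 0), 3 up at 3 µM (DNAJB1 by 0.33, DNAJB6 by 0.24 and CHORDC1 by 0.21, the last lost without the third Helicon 4-neg library at 0.19; 1.64%) and 9 up at 10 µM (8.42%, 2.72% up and 5.71% down). The 9 were HSPA1A, HSPA1B, HSPH1, DNAJA1, DNAJB1, DNAJB2, DNAJB4, DNAJB6 and CHORDC1. The DNAJA1 call, a rise of 0.12, was lost without the first (0.09) or second (0.11) Helicon 4 library or the first Helicon 4-neg library (0.10), or in 1 fit of all 63 libraries (adjusted p 0.0542). At 24 h 10 rose and 2 fell at 1 µM (25.5%), 6 rose and 24 fell at 3 µM (42.9%), and 7 rose and 24 fell at 10 µM (52.7%, 25.1% up and 27.6% down). At 48 h 10 rose and 13 fell (35.9%), 12 rose and 15 fell (52.5%), and 12 rose and 16 fell (53.7%, 26.7% up and 27% down). At 10 µM and 48 h the largest rises, CRYAB aside, were in HSPB1 (1.06), DNAJB2 (0.85) and DNAJB4 (0.58), and the largest falls in BAG2 (-0.41), FKBP4 (-0.38), TRAP1 (-0.35) and PTGES3 (-0.34). A p that missed the threshold does not show that both compounds act alike: for HSPA8 at 6 h and 10 µM the difference was 0.11 (95% interval 0.04 to 0.19, adjusted p 0.0673), and it was called by edgeR (adjusted p 0.0436), with a replicate block (0.0445) and with limma's robust option (0.0392).

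**Figure D4:**
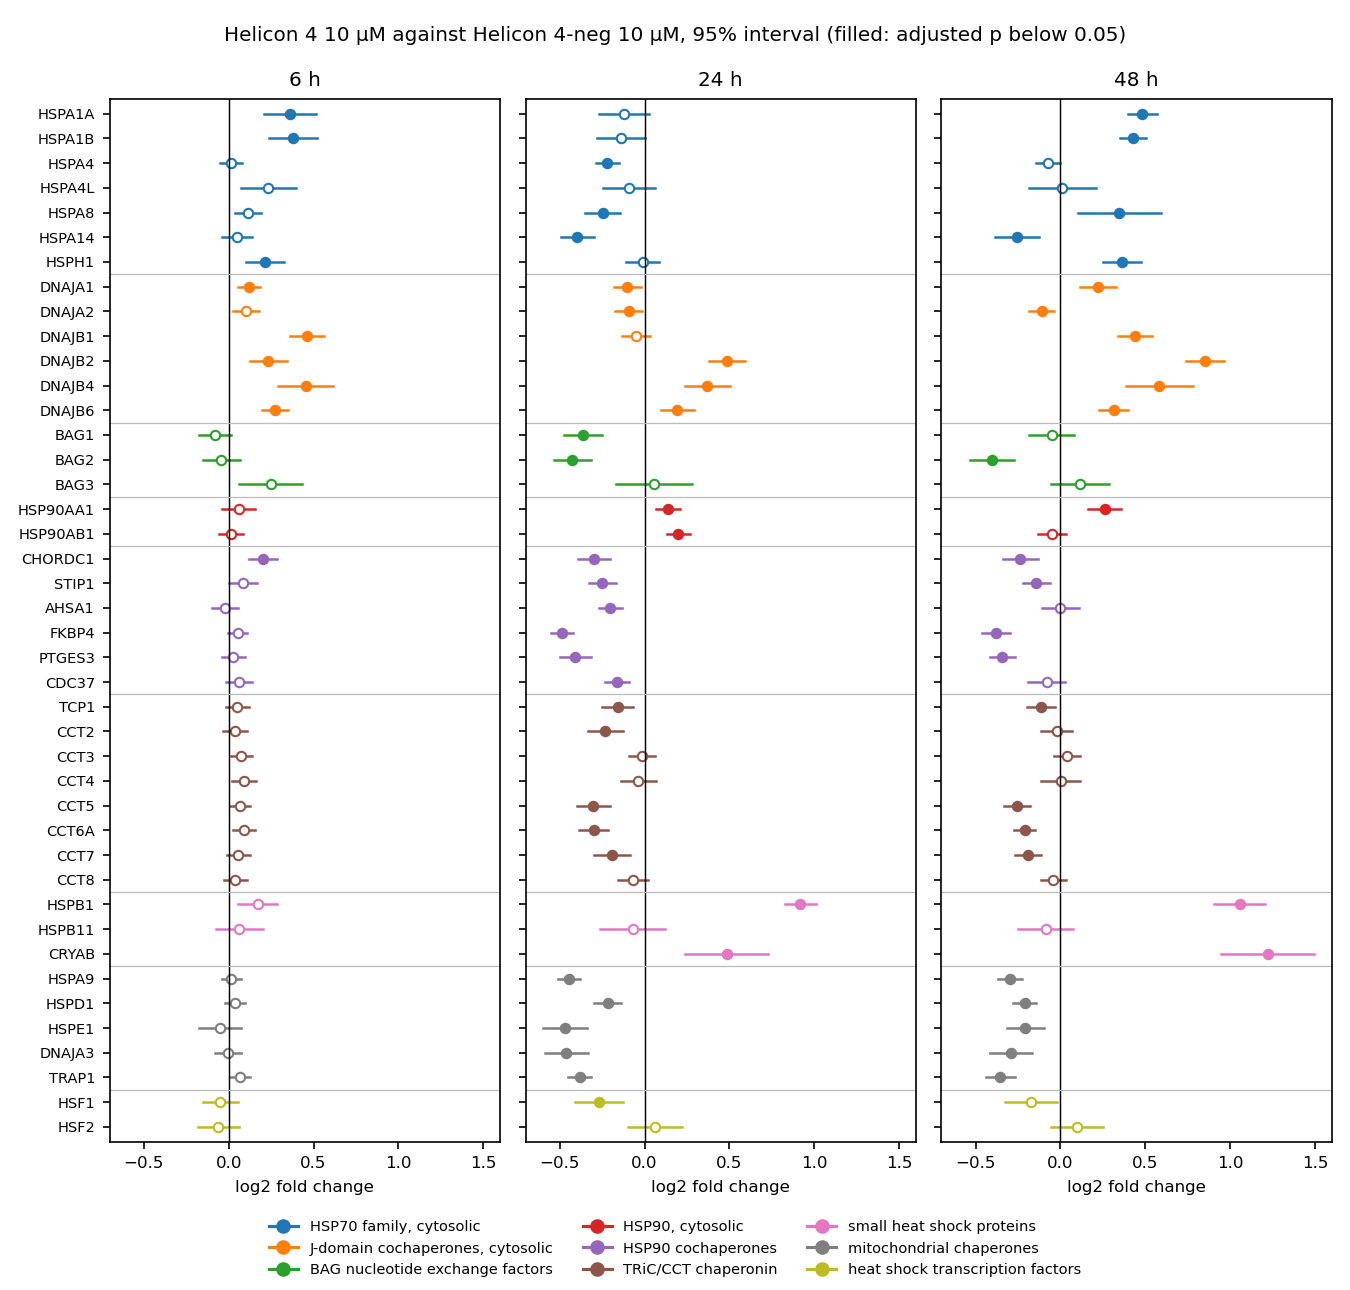
Log2 fold change of 10 µM Helicon 4 against 10 µM Helicon 4-neg with its 95% interval (horizontal axis) for each member (vertical axis, coloured by role) at 6, 24 and 48 h; filled points have a limma adjusted p below 0.05. At 6 h the 9 called members are all above 0, and at 24 h 24 are below 0, among them all 5 mitochondrial chaperones and all 6 HSP90 cochaperones.

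The difference between times was tested in 1 fit of all 63 libraries. From 6 to 24 h the 10 µM Helicon 4 difference from DMSO went down in 25 members and up in 2 (38.6% of all genes called), and from 24 to 48 h it went up in 16 and down in 4 (34.2%). The 2 that went up first were HSPB1, by 1.05 (SE 0.0885, limma adjusted p 3.82e-14), and HSP90AB1. Measured against Helicon 4-neg in place of DMSO, 28 went down and 3 (HSPB1, DNAJB2 and HSP90AB1) up from 6 to 24 h (37.6%), and 14 went up and 1 down from 24 to 48 h (12.8%). HSP90AB1 was the 1 that went down, by 0.25. The summed level of the 42 members ran from 21853.8 to 22309.3 in DMSO and from 24054.9 to 25217 with 10 µM Helicon 4 at 6 h, from 20477.6 to 20898.6 and from 19462.2 to 20543.9 at 24 h, and from 19166.4 to 19454.3 and from 19866 to 20391.7 at 48 h. Helicon 4 was above DMSO without overlap at 6 and 48 h and overlapped it at 24 h. With 10 µM Helicon 4-neg the sum lay between 22702 and 23320.3 at 6 h, between 21416.5 and 21710.9 at 24 h and between 19757.2 and 20658.2 at 48 h. It was above DMSO without overlap at all 3 times, below Helicon 4 at 6 h, above it at 24 h and overlapping it at 48 h.

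Of other genes of the pathway 61 were listed and 60 were in the table. With 10 µM Helicon 4 against DMSO 6 rose and 2 fell at 6 h, 12 rose and 22 fell at 24 h and 12 rose and 28 fell at 48 h (13.3%, 56.7% and 66.7% of the 60, beside 13.7%, 52.7% and 59.8% of all genes). HSPA6, an HSP70 copy with low levels outside stress, read 3.88, 3.12 and 3.18 at 6 h against 1.59, 2.31 and 1.48 in DMSO. The groups did not overlap, and HSPA6 rose by 0.66 (SE 0.142, limma adjusted p 0.00243). JMJD6 rose by 0.20 and the HSP90 partner CACYBP by 0.19, and BAG5 fell by 0.25. SERPINH1, the collagen chaperone of the endoplasmic reticulum, rose by 0.66 at 24 h and 0.62 at 48 h. TOMM34, which escorts proteins to mitochondria, fell by 0.63 and 0.61. At 24 h CRYBG3 fell by 1.03 and the ribosome-associated J-domain protein DNAJC2 by 0.78. CRYBG3 was listed by name, and its place in the pathway was not tested. At 48 h the prefoldin subunit PFDN2 fell by 0.69 and CCT6B, at 0.477 to 0.877 in DMSO and 1.22 to 2.32 with Helicon 4, rose by 0.71. Of 14 other mitochondrial chaperones and proteases, 0 rose and 1 fell at 6 h, 1 rose and 8 fell at 24 h, and 2 rose and 9 fell at 48 h.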

How the data were processed

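RNA of 63 COLO320DM libraries was prepared with a stranded kit and poly(A) enrichment, per the labels' protocols. The genome build was GRCh38, per the submitters' processing notes, which also list STAR 2.7.7a, Trimmomatic 0.39, edgeR 4.0.2, Subread 2.4.2 and featureCounts; annotation, strand use and the treatment of reads with several matches are not given in the sources used here. The deposited values, signal per gene, behaved as CPM on a library size that the authors scaled: 100% of values were whole multiples of 1 read within 0.01 read, and the sum of a column was 0.930 to 1.06 of the geometric mean of all columns. PCR copies cannot be told from molecules. No library duplicated another (0 identical of 63 replicate pairs). Named processed pseudogenes exist for several members (26 for HSPE1, 17 each for HSPA8 and HSPD1), so their counts could be shared.

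Genes reaching 0.5 in 3 or more libraries of a time were kept (13057, 13213 and 13478 at 6, 24 and 48 h; 41, 42 and 42 members). limma 3.58.1 in R 4.3.3 (trend) was fitted to log2(value + 1) per time, with 1 coefficient per group and two-sided p-values adjusted by Benjamini and Hochberg over all genes of a contrast. Differences between times came from 1 fit of 63 libraries and 13782 genes. The fit of 1 comparison was also run on reads simulated from the 6 h libraries, with a spread between replicates that was set and not estimated. That run was a check of the code and does not show how often calls in these data are wrong. Libraries that carry equal replicate numbers did not deviate together (mean correlation of residuals -0.0533 at 6 h, -0.0221 at 24 h and -0.0479 at 48 h), so they were not treated as pairs.

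The members, lists and rules were chosen with earlier results of these data known. Library values are given for the 6 called members with the largest change and no overlap in each 10 µM comparison of Helicon 4 with DMSO or Helicon 4-neg, for HSF1, HSF2, HSPA1A and HSPA1B, and the fold change for the 4 pathway genes with the largest called change per time. Library values of HSP90AB1, BAG2 and CCT4 were added after their results were seen. Alternatives were a pseudocount of 0.1, no filter, median centring, the robust option, a replicate block, HSPA1A and HSPA1B summed, 1 fit of all libraries, each library left out, and edgeR 4.0.16 on the recovered reads, which called 1831, 6937 and 8059 genes for 10 µM Helicon 4 against DMSO at 6, 24 and 48 h, beside 1791, 6968 and 8061 by limma. Coordinates are GENCODE 29 and promoters RefSeq, both GRCh38.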

Additional observations from a re-analysis of the deposited data

Results flagged for a closer look

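For the 17 members whose library values are given by rule, the change in the 10 µM Helicon 4 difference from DMSO between neighbouring times was tested, 34 tests in all, and 23 passed (limma adjusted p below 0.05 over all genes). Of all genes 38.6% passed from 6 to 24 h and 34.2% from 24 to 48 h, and these members were picked for their changes at single times in the same data, so the count is a description only. They are listed here because the effect of the compound at one time differed from that at the next by this test. From 6 to 24 h the log2 difference changed by -0.78 for HSPA1B, -0.74 for HSPA1A, -0.64 for DNAJB1, -0.63 for CHORDC1, -0.61 for HSPH1, -0.55 for HSPA9, -0.54 for DNAJA3, -0.54 for FKBP4, -0.43 for HSPA8, -0.26 for HSPE1 and -0.14 for DNAJB6, and by 1.05 for HSPB1. From 24 to 48 h it changed by 1.01 for HSPA8, 0.83 for HSPH1, 0.60 for CRYAB, 0.54 for HSPA1A, 0.48 for HSPA1B, 0.42 for DNAJB2, 0.40 for DNAJA3, 0.38 for DNAJB4, 0.22 for FKBP4 and 0.16 for HSPA9, and by -0.42 for HSPB1. The level in DMSO changed over the same intervals, HSPA8 by -1.18 from 24 to 48 h and HSPB1 by 0.50. CRYAB passed the filter on low values only through Helicon 4 libraries, so its place in this list is no support for a change. It was not called from 24 to 48 h with a pseudocount of 0.1 (1.27, limma adjusted p 0.13) or by edgeR (1.40, adjusted p 0.25). With median centring the later changes of HSPA9 (0.08, adjusted p 0.068) and DNAJB4 (0.30, adjusted p 0.051) were not called, and DNAJB4 was also lost without the third DMSO library at 48 h (adjusted p 0.0578). The DNAJB6 change from 6 to 24 h was lost with limma's robust option (adjusted p 0.0585) and when 1 library was left out in 7 cases (adjusted p up to 0.152), and that of HSPE1 in 3 cases (adjusted p up to 0.0902).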

How the results depend on the processing

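Counts of members called kept within 1.5 times under no filter, a pseudocount of 0.1, the robust option and the summed HSP70 pair in all 39 comparisons. With median centring per library, Helicon 4-neg gave 1 call in place of 2 at 10 µM and 6 h, 0 in place of 1 at 3 µM and 24 h, and 17 in place of 11 for the slope at 24 h, and TRAP1 in DMSO from 24 to 48 h turned from -0.09 to 0.014. By edgeR the count for 10 µM Helicon 4-neg at 24 h was 11 in place of 7. In 1 fit of all 63 libraries 1 µM Helicon 4 at 6 h gave 1 in place of 8, and 3 µM Helicon 4-neg at 24 h 3 in place of 1. With the replicate block, 10 µM Helicon 4-neg at 6 h gave 1 and its slope at 48 h 0. The cause was not tested.

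Without 1 library, counts for Helicon 4 at 6 h ran from 1 to 15 at 1 µM and from 6 to 14 at 3 µM. For Helicon 4-neg they ran from 0 to 5 at 3 µM and 0 to 1 at 10 µM at 6 h, were 0 at 3 µM and ran from 3 to 6 at 10 µM at 24 h, from 13 to 21 at 3 µM and 10 to 18 at 10 µM at 48 h, and from 4 to 11 and 0 to 1 for the slopes at 24 and 48 h. Depth limits low genes such as CRYAB, CCT6B and HSPA6, since 1 read is worth 0.0301 to 0.0622.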
